A study of Mus musculus with 4 samples.

Results

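The Zfp genes described here are 144 autosomal genes of the mouse zinc finger protein family that were expressed in pachytene spermatocytes, out of 15733 protein-coding genes listed. They were chosen by name (Zfp followed by a number and at most 1 letter, on chromosomes 1 to 19, without Zfp36) and by level, a mean of at least 10 CPM (read counts scaled to a common library size) over the 4 libraries. The table lists 353 autosomal genes with such names, of which 209 lay under 10 CPM. Choosing by level used the mean over both groups and not the difference between them, so the levels are a description and the differences were tested. In 7 of the 144 genes, however, the mock mean was under 10 CPM, and in 3 the BMH21 mean was. Such a gene was taken up through the group in which it was higher, so it had to differ to some degree. These group means use library sizes scaled by TMM, while the choice used unscaled totals. Zfp157 (mock mean 9.96 CPM) and Zfp322a (BMH21 mean 10.09 CPM) lie so near 10 CPM that they change sides with the scale.

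The study compared pachytene spermatocytes from testicular cell suspensions kept ex vivo with BMH21 at 2.5 µM with cells from suspensions kept with the solvent DMSO (mock), both for 12 h. BMH21 is a small molecule that binds DNA and blocks RNA polymerase I, which makes ribosomal RNA. After treatment the cells were stained with the DNA dye Hoechst and sorted by flow cytometry, and their polyadenylated RNA was sequenced. There were 2 BMH21 and 2 mock libraries, called biological replicates in the labels. The sources used here do not give the strain, age or genotype of the mice, or whether each replicate came from its own animals. The p-values therefore measure only the spread between these libraries.

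Zinc finger proteins of this family hold tandem fingers, each a short loop folded around a zinc ion by a pair of cysteines and a pair of histidines, and each contacting a few bases of DNA. Many carry a KRAB domain at the amino end, which recruits the corepressor TRIM28 and with it histone methylation and HP1 proteins, and this class is known above all for silencing retroelements and for protecting imprints. Others have no KRAB domain and act as activators, as partners of chromatin complexes or on RNA. Pachytene is the long stage of meiotic prophase in which homologous chromosomes are synapsed and recombination is completed.

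The BMH21 libraries held 33338160 and 37555727 counts and the mock libraries 41548269 and 30964370, with 15398 to 15535 genes detected per library. Levels below are CPM on library sizes scaled by TMM, and each difference is the log2 fold change of BMH21 over mock from edgeR's quasi-likelihood test, adjusted by Benjamini-Hochberg over 13793 tested genes and called at an adjusted p under 0.05. All 6 pachytene markers were present, with a summed level of 4213 and 4200 CPM in BMH21 cells and 4265 and 4277 CPM in mock cells. The 6 spermatid markers summed to 273 and 268 CPM in BMH21 cells and 255 and 254 CPM in mock cells, and none was called. Spermatogonial markers (4 of 5 listed) summed to 6.49 and 6.45 CPM in BMH21 cells, against 8.32 and 10.6 CPM in mock cells, and 2 of them were called lower. Sertoli markers (2 of 5 listed) summed to 0.917 to 2.05 CPM in BMH21 cells and 1.73 to 2.48 CPM in mock cells. Leydig markers (3 of 4 listed) summed to 6.49 and 7.26 CPM in BMH21 cells and 9.13 and 9.53 CPM in mock cells, with 1 called lower, and the 4 macrophage markers summed to 4.86 to 5.86 CPM in BMH21 cells and 5.36 to 6.91 CPM in mock cells. Of the 6 pachytene markers, 2 were called higher and 4 lower, where 29.1% of all tested genes were called. Sycp3 (log2 fold change 0.46) and Adam3 (0.06) rose. Pou5f2 (-0.22), Piwil1 (-0.16), Ccna1 (-0.15) and Hspa2 (-0.07) fell. Hspa2 and Adam3 made up most of the summed level, so the sum says little of the other markers. The part of these cell types in the differences of the Zfp genes was not tested, and in bulk samples fewer cells of a type and less RNA per cell cannot be told apart.

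The fingers themselves are the feature the family shares. The coding sequence of 1 finger with its linker follows for 2 of the rising and 3 of the falling genes with the smallest p, to show how alike the building block is in genes that moved in opposite directions; capitals mark the codons of the zinc-binding cysteines and histidines.
Zfp354c (11 fingers, chr11:50815506-50815589, minus strand): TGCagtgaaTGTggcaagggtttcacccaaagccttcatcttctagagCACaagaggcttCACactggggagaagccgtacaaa
Zfp46 (12 fingers, chr4:136290220-136290303, plus strand): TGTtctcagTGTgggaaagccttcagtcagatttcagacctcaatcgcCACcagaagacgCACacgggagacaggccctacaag
Zfp820 (12 fingers, chr17:21819710-21819793, minus strand): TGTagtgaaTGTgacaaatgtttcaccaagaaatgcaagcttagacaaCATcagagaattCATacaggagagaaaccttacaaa
Zfp955a (10 fingers, chr17:33242200-33242283, minus strand): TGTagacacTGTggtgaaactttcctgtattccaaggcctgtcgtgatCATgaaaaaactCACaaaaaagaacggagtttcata
Zfp661 (8 fingers, chr2:127577625-127577708, minus strand): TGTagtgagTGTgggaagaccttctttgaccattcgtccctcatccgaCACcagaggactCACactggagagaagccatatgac
The sequences come from GENCODE M21 transcripts on GRCm38. Zfp354c and Zfp820, which moved in opposite directions, had 58 of 84 bases in common, and so did Zfp46 and Zfp661. Zfp955a stood apart, with 37 to 40 of 84 bases in common with each of the others. Fingers were counted as matches of a cysteine and histidine pattern in the longest annotated protein of each gene, and the 144 genes had 1 to 36 of them, with a median of 9.

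Among the 144 Zfp genes, 43 rose and 32 fell with BMH21, and 69 were not called. The share that rose was 29.9%, against 16.5% of all tested genes and 21.1% of the 7465 autosomal genes of at least 10 CPM. The share that fell was 22.2%, against 12.5% of all tested genes and 17.4% of those autosomal genes. Called genes in either direction made up 52.1% of the Zfp genes, 29.1% of all tested genes and 38.4% of the autosomal genes of at least 10 CPM, and the difference between these shares was not tested. Leaving out the 10 genes with a group mean under 10 CPM, a choice made after the data were seen, 36 of 134 rose and 29 fell. DESeq2, an alternative test, called 30 higher and 24 lower, and over all genes with an adjusted p it called 13.6% higher and 9.12% lower. The count of falling genes rests most on 1 library: without mock replicate 1 it was 20.

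Most of these differences were small. The median log2 fold change over the 144 genes was 0.04, with quartiles of -0.11 and 0.18, beside a median of 0.00 and quartiles of -0.10 and 0.12 over the autosomal genes of at least 10 CPM. It was under 0.1 in size in 49 Zfp genes, 0.1 to 0.5 in 76, 0.5 to 1 in 15 and above 1 in 4. Those 4 were Zfp354c, Zfp46 and Zfp422, which rose, and Zfp820, which fell. Zfp354c and Zfp422 passed 10 CPM only through the BMH21 group and so had to differ. Among called genes the median size was 0.32 in the Zfp genes and 0.25 in the autosomal genes of at least 10 CPM. Over the 134 Zfp genes with both group means of at least 10 CPM, that median was 0.28. Of these 134, 12 reached 0.5 in size, against 19 of the 144. The value of 0.25 was not cut in this way. Replicates of 1 group differed by a median of 0.08 (BMH21) and 0.07 (mock) on the log2 scale over the Zfp genes, and by at most 0.35 and 0.41. In 62 genes both BMH21 libraries lay above both mock libraries and in 41 below, while 41 overlapped; over all tested genes 30.9% lay above and 29.9% below. With upper quartile scaling, which moved the median of all genes by -0.0455, the median of the Zfp genes was -0.0052.

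**Figure D1:**
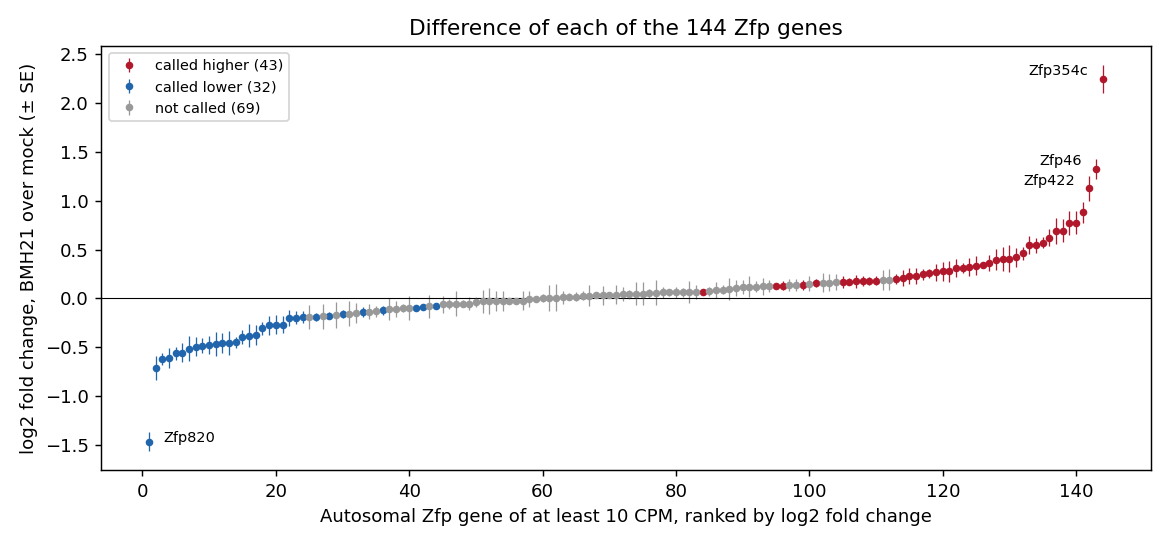
Log2 fold change of BMH21 over mock for each of the 144 Zfp genes, ranked from lowest to highest; bars are ± 1 SE of the edgeR estimate and colours give the call. Most points lie between -0.5 and 0.5, with Zfp820 at -1.47 at the low end and Zfp354c at 2.25 at the high end.

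The strongly expressed Zfp genes showed small differences. Of the 29 genes of at least 100 CPM, 7 rose and 7 fell, their log2 fold changes ran from -0.19 to 0.35, and none reached 0.5 in size. Of the 68 genes of 20 to 100 CPM, 23 rose and 15 fell, and 9 reached that size. Among the 47 genes of 10 to 20 CPM, 13 rose and 10 fell, and 10 reached it, but all 10 genes with a group mean under 10 CPM lie here. Without them 6 of 37 rose and 7 fell, and 3 reached 0.5 in size. In this band a gene with a large difference tends to have 1 group mean under 10 CPM. Leaving such genes out takes large differences away by the choice itself, so the drop does not show what the larger number rests on. From the highest band down, called shares were 48.3%, 55.9% and 48.9%, the last with those 10 genes included. The share was 38.4% over the autosomal genes of at least 10 CPM, and these shares were not tested against each other. The plot of difference against level also shows the other autosomal genes, chosen at the same level. The 209 autosomal Zfp genes under 10 CPM gave 171 tested genes, of which 23 rose and 27 fell, with a median log2 fold change of -0.09. In a related set, the 42 autosomal Zbtb, Zscan and Zkscan zinc finger genes of at least 10 CPM, 10 rose and 13 fell, with a median of 0.00. Called genes made up 54.8% of that set, beside 52.1% of the 144 Zfp genes, so a high called share was not particular to the Zfp genes.

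**Figure D2:**
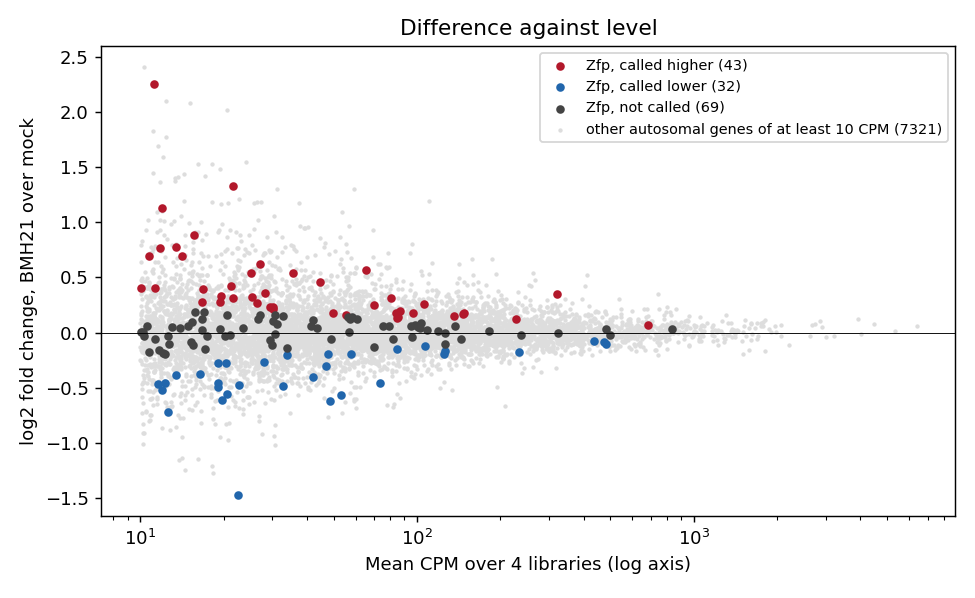
Log2 fold change of BMH21 over mock against mean CPM over the 4 libraries (log axis), for the Zfp genes coloured by call and for 7321 other autosomal genes of at least 10 CPM in grey. Differences above 0.5 in size are found among Zfp genes under 100 CPM and in none of the 29 above it.

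The gene with the greatest rise was Zfp354c, a KRAB zinc finger gene on the minus strand of chromosome 11 (chr11:50811086-50827724, GRCm38). It stood at 18.2 and 19.1 CPM in BMH21 cells and at 4.29 and 3.49 CPM in mock cells. The rise was 4.75-fold, with a log2 fold change of 2.25 ± 0.14 (SE, n = 2 each) and an edgeR adjusted p of 5.26e-22. Both BMH21 libraries lay far above both mock libraries, and the gene passed 10 CPM only through the BMH21 group. Zfp46 (chr4:136284683-136293942, plus strand), with 12 fingers and no match to the KRAB pattern, followed with 28.9 and 33.2 CPM in BMH21 cells and 11.9 and 12.9 CPM in mock cells. Its log2 fold change was 1.32 ± 0.10 and its edgeR adjusted p 3.29e-18.

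Zfp422 had 16.9 and 15.97 CPM in BMH21 cells, against 7.10 and 7.998 CPM in mock cells, a log2 fold change of 1.13 ± 0.13 with an edgeR adjusted p of 3.53e-11. It too passed 10 CPM through the BMH21 group alone. Of the 50-base windows of its transcript, 20.4% also occur in transcripts of other genes. Counted over all transcripts of each gene, the most matches were with Zfp955b, which fell. Reads from such stretches cannot be told apart by sequence. Zfp148 encodes a factor that binds GC-rich promoters and stood at 20.98 and 19.8 CPM in BMH21 cells and at 11.2 and 10.9 CPM in mock cells. Its groups were well apart, with a log2 fold change of 0.88 ± 0.11 and an edgeR adjusted p of 8.69e-10. Zfp157, a KRAB gene, had 16.4 and 17.6 CPM in BMH21 cells and 9.44 and 10.5 CPM in mock cells, a log2 fold change of 0.78 ± 0.12 with an edgeR adjusted p of 2.09e-07. Its mock mean was 9.96 CPM on TMM-scaled library sizes. That is so near 10 CPM that whether Zfp157 was taken up through the BMH21 group alone depends on the scaling.

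Several rising genes have functions known from other cells. The mouse gene Zfp410, whose human counterpart activates the gene of the chromatin remodeller CHD4, had 33.8 and 31.9 CPM in BMH21 cells and 20.1 and 22.8 CPM in mock cells. Its log2 fold change was 0.62 ± 0.09 (edgeR adjusted p = 2.64e-08), while Chd4 itself was at 515 CPM in BMH21 cells and 511 CPM in mock cells and was not called. Zfp830, a gene linked to genome stability and splicing (chr11:82764345-82765935, plus strand), stood at 73.7 and 83.3 CPM in BMH21 cells and at 52.3 and 53.6 CPM in mock cells. With a log2 fold change of 0.57 ± 0.06 and an edgeR adjusted p of 1.33e-12 it had both BMH21 values well above the mock pair. Zfp746 encodes PARIS, a repressor that is a substrate of the ubiquitin ligase Parkin, and was measured at 43.0 and 41.8 CPM in BMH21 cells and 29.9 and 28.1 CPM in mock cells. Zfp143, an activator of small nuclear RNA genes and of many promoters, was at 51.7 CPM in both BMH21 libraries and at 37.1 and 38.1 CPM in the mock libraries. Their log2 fold changes were 0.54 ± 0.08 for Zfp746 (edgeR adjusted p = 2.22e-08) and 0.46 ± 0.07 for Zfp143 (edgeR adjusted p = 1.01e-07).

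Zfp35, a gene known for its expression in pachytene spermatocytes, was the one strongly expressed member among the 10 rising genes with the smallest p. It stood at 353 and 368 CPM in BMH21 cells, against 278 and 290 CPM in mock cells. The log2 fold change was only 0.35 ± 0.03, yet the high counts gave an edgeR adjusted p of 1.11e-15. Per kb of exon it was among the highest of the 144 genes, at 106 CPM per kb, where the median was 6.13.

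The deepest fall was in Zfp820, a KRAB gene with 12 fingers on the minus strand of chromosome 17 (chr17:21816885-21845772, GRCm38). It had 12.0 and 11.8 CPM in BMH21 cells, against 32.4 and 33.5 CPM in mock cells. BMH21 cells thus had 0.361 of the mock level, a log2 fold change of -1.47 ± 0.10 with an edgeR adjusted p of 6.09e-21. No other autosomal gene among the 7465 of at least 10 CPM had a lower log2 fold change. Zfp661 (chr2:127574662-127587094, minus strand), also a KRAB gene, was at 41.6 and 44.1 CPM in BMH21 cells and at 61.6 and 65.4 CPM in mock cells. Its log2 fold change was -0.56 ± 0.06 and its edgeR adjusted p 3.11e-11, with no overlap between the groups.

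The other falling genes with the smallest p changed by less than 1 on the log2 scale. Zfp607b, a KRAB gene with 17 fingers, stood at 26.6 and 28.1 CPM in BMH21 cells and at 37.4 and 39.1 CPM in mock cells, a log2 fold change of -0.48 ± 0.08 (edgeR adjusted p = 9.32e-07). Zfp770 had 16.6 and 14.5 CPM in BMH21 cells and 24.3 and 23.2 CPM in mock cells, and fell by 0.61 on the log2 scale (edgeR adjusted p = 1.04e-06). Zfp653 had 16.4 and 16.9 CPM in BMH21 cells and 25.97 and 23.1 CPM in mock cells, and shares 471 exonic bases with another gene model on its strand, Gm49318. In each of these genes the BMH21 pair lay below the mock pair. Zfp512 was at 35.2 and 37.2 CPM in BMH21 cells and at 47.0 and 48.5 CPM in mock cells. Zfp39, a strongly expressed KRAB gene, was at 212 and 226 CPM in BMH21 cells and 247 and 248 CPM in mock cells, the smallest fall of the 10 at -0.18 ± 0.03 on the log2 scale (edgeR adjusted p = 1.41e-05).

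**Figure D3:**
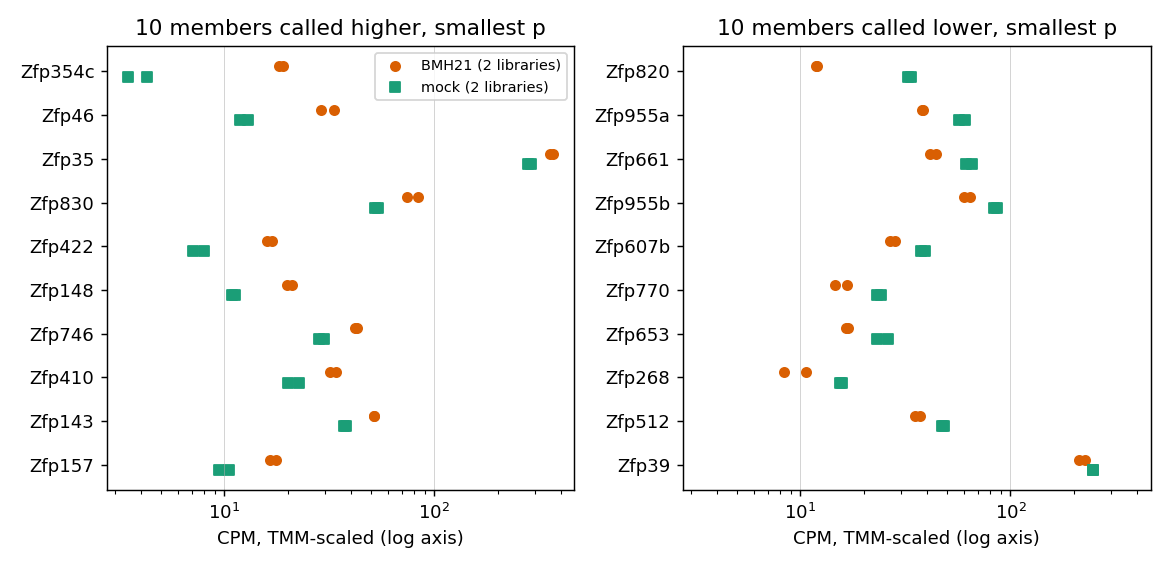
CPM (TMM-scaled, log axis) in each BMH21 library (circles) and each mock library (squares) for the 10 Zfp genes that rose and the 10 that fell with the smallest p. The groups are separate in every gene shown, from Zfp354c at 18.2 and 19.1 CPM in BMH21 cells and 4.29 and 3.49 CPM in mock cells to Zfp39 at 212 and 226 CPM in BMH21 cells and 247 and 248 CPM in mock cells.

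Zfp955a and Zfp955b are KRAB genes with 10 fingers each that lie side by side on chromosome 17 on opposite strands (chr17:33239718-33255145, minus, and chr17:33289544-33307241, plus), and both fell. Zfp955a had 38.3 and 38.1 CPM in BMH21 cells, against 56.9 and 60.8 CPM in mock cells, a log2 fold change of -0.62 ± 0.07 with an edgeR adjusted p of 4.57e-12. Zfp955b had 59.9 and 64.0 CPM in BMH21 cells, against 83.4 and 86.3 CPM in mock cells, a log2 fold change of -0.45 ± 0.05 with an edgeR adjusted p of 2.46e-10. Of the 50-base windows of Zfp955a, 51.8% occur in transcripts of another gene, and of those of Zfp955b 50.2% do. Counted over all transcripts of each gene, Zfp955a had the most matches with Zfp955b, and Zfp955b with Zfp422, which rose. That count favours genes with more transcripts, so it does not show which gene shares the most windows. How reads of such windows were divided among these genes is uncertain. Zfp955b also overlaps 707 exonic bases of the pseudogene Zfp422-ps on the other strand. The 150 bases before the annotated start were the same in both genes, 150 of 150, and are shown because this pair moved together; capitals mark CCAAT and the letters TAACNG, a core of the sites bound by MYB proteins, on either strand.
Zfp955a (chr17:33255146-33255295, minus strand): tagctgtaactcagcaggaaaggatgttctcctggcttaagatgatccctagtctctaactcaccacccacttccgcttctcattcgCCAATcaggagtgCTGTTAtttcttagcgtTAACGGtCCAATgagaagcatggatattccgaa
The promoter sequence is from RefSeq on GRCm38.p6.

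Promoters were searched on both strands over the 250 bases before the start for 5 short motifs, and RefSeq promoters were matched for 118 of the 144 genes. TAACNG occurred in 20.3% of the Zfp promoters and in 19.8% of 27025 promoters of all genes. It was in 3 of 33 promoters of rising Zfp genes (9.09%) and in 10 of 27 of falling ones (37.0%), among them Zfp955a and Zfp955b, whose identical sequence counts for both. GGGCGG, a core of GC boxes, was in 50.8% of the Zfp promoters and 32.9% of all promoters, and in 18 of 33 promoters of rising and 10 of 27 of falling genes. CCAAT was in 43.2% of the Zfp promoters and 34.5% of all, and in 13 of 33 promoters of rising and 9 of 27 of falling genes. TGACGTCA, the full cyclic AMP response element, was in 4.24% and 1.62%, and TATAAA in 5.93% and 13.0%. Base composition differed too, with a median GC of 61.2% in promoters of rising and 53.2% in those of falling genes, and 52% over all promoters. The part of composition in the motif shares was not tested. The shares count matches of letters in a fixed window, and neither binding nor a difference between the shares was tested.

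The most abundant Zfp genes changed little. Zfp646 stood at 838 and 847 CPM in BMH21 cells and at 823 and 821 CPM in mock cells and was not called (log2 fold change 0.04 ± 0.02, edgeR adjusted p = 0.257). Zfp654 was at 686 and 714 CPM in BMH21 cells and 671 and 666 CPM in mock cells, a rise of 0.07 ± 0.02 on the log2 scale (edgeR adjusted p = 0.0262). That call was lost without BMH21 replicate 2 (0.03), mock replicate 1 (0.07) or mock replicate 2 (0.06), and with upper quartile scaling (0.02). Zfp110 encodes NRIF, a partner of the neurotrophin receptor, and was at 489 and 500 CPM in BMH21 cells and 508 and 498 CPM in mock cells. It was not called, though it passed with upper quartile scaling (-0.07). Zfp91, a ubiquitin ligase gene, was at 474 and 456 CPM in BMH21 cells, against 507 and 488 CPM in mock cells, a fall of -0.10 ± 0.03 on the log2 scale (edgeR adjusted p = 0.00256) that was lost without mock replicate 1 (-0.07). It shares 847 exonic bases with Cntf on the same strand. Per kb of exon, Zfp110 (121 CPM per kb) and Zfp654 (109) were the highest of the 144 genes, whose lowest was 1.42.

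Of 6 Zfp genes listed for roles in germ cells, 2 rose and 2 fell. The called share was 66.7%, beside 52.1% of the 144 genes and 29.1% of all tested genes. Beside Zfp35, Zfp37 rose, a gene known for its expression in testis, with 32.7 and 31.1 CPM in BMH21 cells and 28.6 and 25.8 CPM in mock cells (log2 fold change 0.23 ± 0.08, edgeR adjusted p = 0.0297). This call did not hold in DESeq2, with upper quartile scaling (0.18), or without BMH21 replicate 1 (0.19) or mock replicate 2 (0.16). Zfp541, which works with KCTD19 and histone deacetylase and is required for exit from pachytene, fell slightly, with 458 and 460 CPM in BMH21 cells and 484 and 492 CPM in mock cells. Its log2 fold change was -0.09 ± 0.03 (edgeR adjusted p = 0.00598), and the call was lost without mock replicate 2 (-0.08). Zfp318, a nuclear protein gene strongly expressed in testis, had 474 and 500 CPM in BMH21 cells and 468 and 487 CPM in mock cells, with overlapping groups, and passed only without BMH21 replicate 1 (0.07). Zfp42 (REX1), a pluripotency marker, had 59.7 and 58.3 CPM in BMH21 cells and 52.2 and 55.0 CPM in mock cells (edgeR adjusted p = 0.0785). Zfp819, under 10 CPM and so not among the 144, fell, with 3.68 and 3.62 CPM in BMH21 cells and 6.34 and 5.69 CPM in mock cells.

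Of 8 KRAB genes listed for guarding imprints or silencing retroelements, only Zfp57 and Zfp445 reached 10 CPM. Of the 8, 1 rose and 2 fell, Zfp819 being counted here as well. Their called share was 37.5%, beside 29.1% of all tested genes. Zfp57, which keeps methylation at imprinted regions, had 40.9 and 43.2 CPM in BMH21 cells and 53.2 and 50.7 CPM in mock cells. It fell by 0.31 on the log2 scale (edgeR adjusted p = 0.000189), with no overlap between groups. Zfp445, which acts at imprinted regions together with ZFP57, had 138 and 141 CPM in BMH21 cells and 134 and 134 CPM in mock cells and was not called (log2 fold change 0.06 ± 0.04, edgeR adjusted p = 0.287). Zfp568, at 7.30 and 8.36 CPM in BMH21 cells and 6.20 and 5.05 CPM in mock cells, rose by the edgeR test (adjusted p = 0.0215). DESeq2 did not call it, nor did edgeR without BMH21 replicate 2 (log2 fold change 0.37) or mock replicate 2 (0.34).

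Among 12 Zfp genes listed as partners of chromatin corepressor complexes, 5 rose and 2 fell. Called genes made up 58.3% of them, beside 52.1% of the 144 genes and 29.1% of all tested genes. The 6 of the list that reached 10 CPM lay between -0.14 and 0.16 on the log2 scale. Zfp687 and Zfp592, components of a complex with the reader protein ZMYND8, both rose. Zfp687 had 144 and 143 CPM in BMH21 cells and 128 and 130 CPM in mock cells (log2 fold change 0.16 ± 0.04, edgeR adjusted p = 0.0015), and Zfp592 had 87.1 and 89.4 CPM in BMH21 cells and 80.2 and 81.2 CPM in mock cells (0.13 ± 0.05, 0.0399). The Zfp592 call was lost when any 1 of the 4 libraries was left out (0.11 to 0.15), in DESeq2 and with upper quartile scaling (0.08). Zfp532, another component, was at 3.29 and 2.70 CPM in BMH21 cells and at only 0.191 and 0.0640 CPM in mock cells and rose too. Zfp518b, at 8.57 and 10.3 CPM in BMH21 cells and 1.86 and 1.28 CPM in mock cells, rose with a log2 fold change of 2.56 ± 0.20, while its relative Zfp518a, at 82.4 and 78.6 CPM in BMH21 cells and 90.3 and 87.4 CPM in mock cells, fell by 0.14 (edgeR adjusted p = 0.0227). The fall of Zfp518a was lost in DESeq2 and without BMH21 replicate 2 (-0.11) or mock replicate 1 (-0.12). Zfp219 also rose, with 3.65 and 4.10 CPM in BMH21 cells and 0.953 and 0.544 CPM in mock cells, and Zfp827 fell, with 7.91 and 7.15 CPM in BMH21 cells and 11.3 and 11.6 CPM in mock cells. Zfp644, a partner of the methyltransferases G9a and GLP, Zfp217, of the CoREST complex, and Zfp281, a pluripotency factor, had log2 fold changes of 0.06, -0.03 and 0.05 and were not called.

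Of 10 Zfp genes listed for RNA, ribosome or spindle functions, 4 rose and 1 fell. That is a called share of 50%, near the 52.1% of the 144 genes, beside 29.1% of all tested genes. Zfp830 and Zfp143, given above, had the smallest p among the rising ones. Zfp593, involved in building the large ribosomal subunit, had 12.5 and 10.4 CPM in BMH21 cells and 8.63 and 8.64 CPM in mock cells (log2 fold change 0.41 ± 0.14, edgeR adjusted p = 0.0168). It is the gene nearest above 10 CPM, taken up through the BMH21 group, it overlaps 1627 exonic bases of E130218I03Rik on the other strand, and the call was lost in DESeq2 and without BMH21 replicate 1 (0.27), mock replicate 1 (0.41) or mock replicate 2 (0.41). Zfp106, an RNA-binding protein gene, had 57.1 and 60.1 CPM in BMH21 cells and 53.2 and 51.3 CPM in mock cells (0.16 ± 0.06, edgeR adjusted p = 0.0351); 2719 of its exonic bases overlap Gm26899 on the other strand. Its call did not hold in DESeq2, with upper quartile scaling (0.12), or without BMH21 replicate 2 (0.12), mock replicate 1 (0.19) or mock replicate 2 (0.14).

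Zfp385a, an RNA-binding protein gene, was the falling gene of that list, with 120 and 114 CPM in BMH21 cells and 137 and 131 CPM in mock cells (log2 fold change -0.19 ± 0.04, edgeR adjusted p = 0.000173). Zfp598, the sensor of collided ribosomes, had 65.2 and 61.4 CPM in BMH21 cells and 59.7 and 56.7 CPM in mock cells and was not called (edgeR adjusted p = 0.127). Zfp638, a nuclear RNA- and DNA-binding protein gene, had 120 and 124 CPM in BMH21 cells and 128 and 133 CPM in mock cells and was just short of a call (-0.10 ± 0.04, edgeR adjusted p = 0.0602). It passed with upper quartile scaling (-0.15), with the stricter low-count filter (-0.10) and without BMH21 replicate 2 (-0.13). Zfp346, which binds double-stranded RNA, and Zfp207, a spindle and kinetochore protein gene, had overlapping groups and log2 fold changes of 0.03 and 0.02.

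The corepressor genes that KRAB proteins rely on included rising, falling and uncalled ones. Trim28, the adaptor that binds the KRAB domain, was at 570 and 536 CPM in BMH21 cells and 565 and 540 CPM in mock cells and was not called. Of 16 corepressor genes listed, 3 rose, 4 fell and 9 were not called, a called share of 43.8%. It was 29.1% over all tested genes and 38.4% over the autosomal genes of at least 10 CPM. The list was not cut at 10 CPM: Smarcad1 (mean 2.32 CPM) and Dnmt3a (0.655 CPM) lay under it and were not called, which lowers its share. Setdb1, the histone methyltransferase recruited by TRIM28, had 123 and 120 CPM in BMH21 cells and 138 and 138 CPM in mock cells (log2 fold change -0.19 ± 0.04, edgeR adjusted p = 0.000204). Atf7ip, the partner that stabilises SETDB1, had 103 and 109 CPM in BMH21 cells and 146 and 142 CPM in mock cells (-0.44 ± 0.04, edgeR adjusted p = 6.73e-14). Uhrf1, which guides maintenance methylation, fell by 0.30, while Dnmt1, the maintenance methyltransferase, rose by 0.37 and Hdac2, a histone deacetylase, by 0.80 on the log2 scale. Of the HP1 genes, Cbx3 rose (0.25) and Cbx5 fell (-0.11), and both calls depended on single libraries: Cbx3 lost its call without BMH21 replicate 2 (0.22) or mock replicate 1 (0.20), and Cbx5 without BMH21 replicate 1 (-0.08), mock replicate 1 (-0.08) or mock replicate 2 (-0.13). Cbx5 was also not called in DESeq2 or among autosomal genes alone.

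A match to the KRAB pattern was found in 50 of the 144 genes, of which 12 rose and 15 fell, with a median log2 fold change of -0.03. Of the 94 genes without a match, 31 rose and 17 fell, with a median of 0.06. Called genes made up 54% of those with a match and 51.1% of those without, beside 38.4% of the autosomal genes of at least 10 CPM. Rising genes made up 44.4% of the called genes with a match and 64.6% of those without, a difference that was not tested. Among called autosomal genes of at least 10 CPM 54.8% rose. The shares of 44.4% and 64.6% include genes with a group mean under 10 CPM, whose direction follows from how they were taken up. With a match these were Zfp354c, Zfp157 and Zfp981, which rose, and Zfp268, Zfp595 and Zfp984, which fell. Without a match they were Zfp422, Zfp593, Zfp668 and Zfp768, which all rose and so raise that share. The pattern misses some known KRAB genes, so genes without a match may still carry the domain. The shares therefore compare pattern matches and not genes with and without the domain. With a looser pattern, chosen after the data were seen, 54 genes matched, of which 14 rose and 16 fell, and it may miss some as well. Without BMH21 replicate 2 the rising KRAB genes numbered 7. Both the greatest rise, in Zfp354c, and the deepest fall, in Zfp820, were in KRAB genes.

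Rising and falling genes were found at low and at high finger numbers. Of 42 genes with up to 5 fingers, 11 rose and 9 fell. Of 66 with 6 to 12, 23 rose and 14 fell, and of 36 with more than 12, 9 rose and 9 fell. In that order called shares were 47.6%, 56.1% and 50%, beside 52.1% of the 144 genes and 38.4% of the autosomal genes of at least 10 CPM. They were not tested against each other. Across the 144 genes, which share the same 4 libraries, the correlation of the log2 fold change with finger number was -0.07 (Pearson) and -0.03 (Spearman), with protein length -0.05 and -0.02, with gene span -0.01 and -0.01, and with mean CPM -0.04 and -0.01. For exon length it was 0.12 and 0.19.

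**Figure D4:**
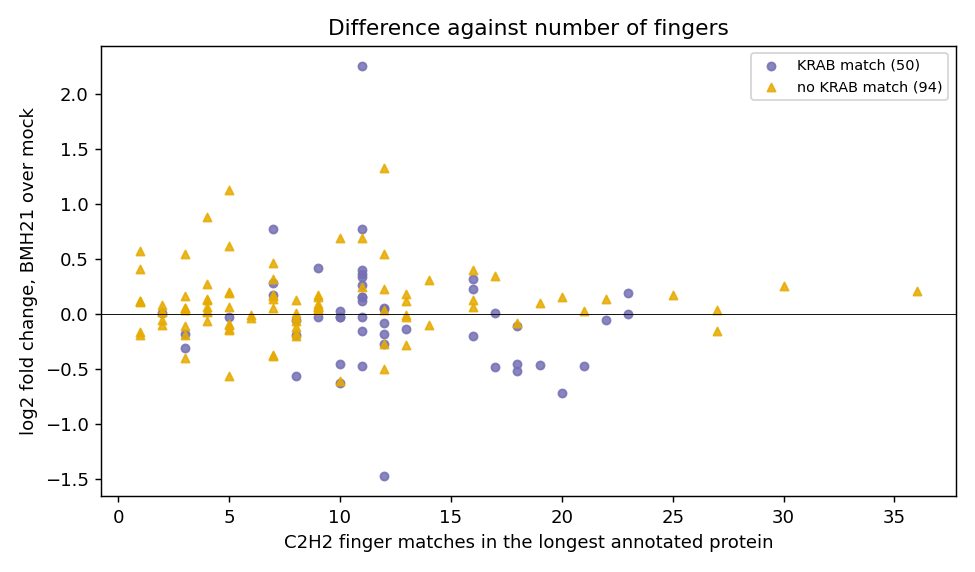
Log2 fold change of BMH21 over mock against the number of finger matches in the longest annotated protein, for 50 genes with a KRAB match (circles) and 94 without (triangles). Genes without a match may still carry a KRAB domain. Rising and falling genes occur at low and high finger numbers, and the points furthest from 0 have 11 and 12 fingers.

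Zfp genes often lie in clusters of neighbouring copies. Joining Zfp genes whose starts lie within 500 kb gave 169 runs, of which 5 held at least 5 of the 144 genes. In the run of 19 Zfp genes at chr4:145510759-147848366, 6 reached 10 CPM, of which 3 rose and 2 fell. Of these, Zfp981, Zfp268 and Zfp984 had 1 group mean under 10 CPM and were taken up through their higher group; among the other 3 genes, 2 rose and none fell. Zfp981 had 14.6 and 15.3 CPM in BMH21 cells and 9.10 and 8.35 CPM in mock cells (log2 fold change 0.77 ± 0.13, edgeR adjusted p = 9.21e-07). Zfp268 in the same run had 10.7 and 8.34 CPM in BMH21 cells and 15.3 and 15.7 CPM in mock cells (-0.71 ± 0.13, edgeR adjusted p = 4.42e-06). Both groups are apart in each gene, but the opposite directions in this run rest on genes taken up through their higher group. Zfp991 (0.36) and Zfp992 (0.27) rose, Zfp984 (-0.47) fell and Zfp979 (-0.18) was not called. Shared 50-base windows made up 86.7% of the transcripts of Zfp991, 58.8% of Zfp268, 54.6% of Zfp984, 43.0% of Zfp992, 39.9% of Zfp981 and 24.6% of Zfp979, so how reads were divided among them is uncertain. The call of Zfp992 was lost in DESeq2 and without BMH21 replicate 2 (0.23) or mock replicate 1 (0.20).

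The run of 23 Zfp genes at chr17:21008903-23599487 held 7 of the 144 genes, and 3 fell: Zfp820, Zfp51 and Zfp54. Zfp51 had 16.4 and 15.7 CPM in BMH21 cells and 22.9 and 21.1 CPM in mock cells (log2 fold change -0.46 ± 0.10, edgeR adjusted p = 0.000185). Zfp54 (-0.27) lost its call in DESeq2 and without BMH21 replicate 1 (-0.19), mock replicate 1 (-0.31) or mock replicate 2 (-0.24). The rest, Zfp942, Zfp943, Zfp944 and Zfp758, lay between -0.15 and 0.16 and were not called, although Zfp942 passed without mock replicate 1 (0.26). In all, 6 of the 13 Zfp genes of chromosome 17 fell and 1 rose, against 6 that rose and 3 that fell of 11 on chromosome 4 and 8 of each among 37 on chromosome 7. Over all 144 genes 29.9% rose and 22.2% fell. The chromosome 4 counts include Zfp981, Zfp593, Zfp268 and Zfp984, and those of chromosome 7 Zfp768 and Zfp668, all taken up through their higher group. These counts were not tested against each other.

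The other runs are on chromosome 7. At chr7:127233061-127885996, 2 of 6 genes rose, and both had a mock mean under 10 CPM and were taken up through the BMH21 group, while none of the other 4 was called: Zfp768, with 13.2 and 13.5 CPM in BMH21 cells and 7.82 and 8.73 CPM in mock cells (log2 fold change 0.69 ± 0.13, edgeR adjusted p = 1.94e-05), and Zfp668, with 13.1 and 12.7 CPM in BMH21 cells and 9.46 and 10.1 CPM in mock cells (0.40 ± 0.13, edgeR adjusted p = 0.011). Zfp668 overlaps its abundant neighbour Zfp646 by 608 exonic bases on opposite strands, and its call was lost in DESeq2 and without BMH21 replicate 1 (0.38) or mock replicate 1 (0.36). At chr7:27689340-28014115, Zfp850 rose (0.32) and Zfp607b and Zfp59 (-0.20) fell, while Zfp626 and Zfp974 were not called. Zfp850 lost its call without BMH21 replicate 2 (0.26) or mock replicate 1 (0.27), and Zfp59, with 52.4% shared windows, in DESeq2 and without BMH21 replicate 1 (-0.15) or mock replicate 1 (-0.17). At chr7:24081924-25227507, only Zfp574 of 5 genes was called, with 442 and 410 CPM in BMH21 cells and 451 and 447 CPM in mock cells (-0.08 ± 0.03, edgeR adjusted p = 0.0279), and that call was lost in DESeq2 and without BMH21 replicate 2 (-0.03), mock replicate 1 (-0.07) or mock replicate 2 (-0.08). Zfp180, Zfp93, Zfp61 and Zfp526 in the same run had log2 fold changes of -0.06 to 0.12.

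**Figure D5:**
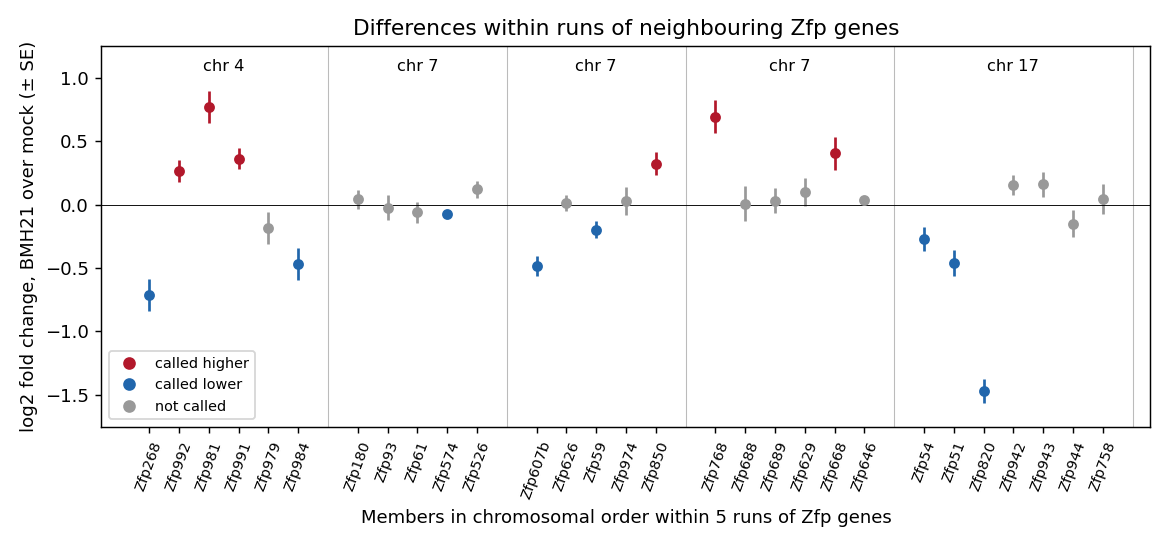
Log2 fold change of BMH21 over mock (± 1 SE) of the Zfp genes of at least 10 CPM in 5 runs of neighbouring Zfp genes, in chromosomal order within each run; colours give the call. Zfp981 at 0.77 and Zfp268 at -0.71 in the chromosome 4 run were each taken up through their higher group, and Zfp820 at -1.47 stands below its chromosome 17 neighbours.

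Genes with near-identical stretches elsewhere included both rising and falling ones. Of the 21 genes with more than 20% of their windows shared, 7 rose and 6 fell, and of the 123 others 36 rose and 26 fell. Called shares were 61.9% and 50.4%, beside 38.4% of the autosomal genes of at least 10 CPM, and were not tested against each other. Both sets include genes with a group mean under 10 CPM, among the 21 Zfp981, Zfp422, Zfp593, Zfp268 and Zfp984, which raises these shares. In 55 genes no window was shared. Exons of 54 genes overlap those of another gene, for which reads may have been divided or mixed.

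At the threshold itself, the genes just above 10 CPM were Zfp593, Zfp322a (10.4 and 9.82 CPM in BMH21 cells, 10.01 and 10.08 CPM in mock cells) and Zfp688 (9.57 and 11.0 CPM in BMH21 cells, 11.4 and 8.96 CPM in mock cells). Just below it lay Zfp867, with 6.73 and 7.77 CPM in BMH21 cells and 12.4 and 12.0 CPM in mock cells, Zfp33b, with 7.79 and 9.07 CPM in BMH21 cells and 10.9 and 10.6 CPM in mock cells, and Zfp827.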

How the data were processed

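Libraries were prepared with a stranded mRNA kit from TRIzol RNA, per the labels' protocols. Per the submitters' processing notes, the authors used the build mm10 and DESeq2, featureCounts, SAMtools, STAR and fastp; versions, and whether counting used strand or how it treated reads that fit several genes, are not given in the sources used here. The authors deposited raw counts per gene, which all tests use. The authors' size-factor-normalized signal, log2 fold changes, Wald score and p-values, DESeq2 output per the file headers, entered no test; rerunning DESeq2 on those counts matched their fold changes to within 2.83e-05 (log2).

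Counts of 30964370 to 41548269 per library were tested in edgeR 4.0.16 (R 4.3.3): filterByExpr with a minimum count of 10 kept 13793 of 15733 genes, TMM scaling, quasi-likelihood test with group alone, called at an adjusted p under 0.05. Unadjusted, 5176 genes had a p under 0.05. The standard error given is the log2 fold change divided by the square root of F, an approximation. The biological coefficient of variation was 4.09%, and replicates differed by more than counting error (chi-square per degree of freedom 3.71 for BMH21 and 3.21 for mock). The test was checked on simulated counts.

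Positions, exons and coding sequences are those of GENCODE M21 on GRCm38, matched by gene identifier for 15670 genes; positions in the table equal these for 369 of them and were not used. Fingers (C, 2 to 4 residues, C, 12, H, 3 to 5, H) and the KRAB pattern were searched in translations of the longest M21 coding sequence, since no protein table was used here. Promoters are RefSeq's.

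The members and lists were chosen with earlier results of these data known. Named genes are the 10 rising and 10 falling with the smallest p, the 5 most abundant, members of the role lists, the 3 either side of 10 CPM and members of runs of at least 5; called genes of the lists that are no members, and Trim28 and Chd4, were added after their values were seen. Alternatives were DESeq2 1.42.0, other scalings and filters, autosomal genes alone, other thresholds, a replicate block and leaving out each library.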

Additional observations from a re-analysis of the deposited data

How the results depend on the processing

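With 2 libraries per group, differences near the spread between replicates turn on single libraries. With upper quartile scaling, which moved the median of all genes by -0.0455, 33 Zfp genes rose and 36 fell, DESeq2 gave 30 and 24, and RLE size factors, the other filters and autosomal genes alone gave 43 and 31 to 34. The median of the Zfp genes was -0.0052 with upper quartile scaling and 0.0597 over the 97 genes of at least 20 CPM; the cause was not tested. Leaving out each library gave 30 to 33 rising and 20 to 28 falling genes, a median of 0.0387 to 0.05, and 7 to 9 rising and 12 to 15 falling KRAB genes. At 5 CPM, 53 of 192 genes rose and 46 fell. Over the 134 genes with both group means of at least 10 CPM, chosen after the data were seen, 36 rose and 29 fell. The looser KRAB pattern gave 14 and 16.

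The labels give both groups the replicate numbers 1 and 2, but same-numbered libraries did not deviate together (correlation 0.008 over 7496 genes). With 2 libraries per group this cannot tell whether same-numbered libraries came from the same suspension or animals. With a replicate block 40 Zfp genes rose and 32 fell, and 10 KRAB genes rose and 15 fell. Of the named genes, Cbx5 (-0.1114, adjusted p = 0.0506) and Zfp33b (-0.3531) lost their call with the block, and Zfp638 gained one (-0.102).

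Over 85 named genes and 933 comparisons, 826 kept direction and side of the threshold, 65 lost a call, 7 gained one and 35 changed sign, of which 0 were called. With upper quartile scaling the sign changed in Zfp180 (-0.0055), Zfp207 (-0.0281), Zfp318 (-0.0152), Zfp346 (-0.0179), Zfp626 (-0.0365), Zfp646 (-0.0103), Zfp688 (-0.0387), Zfp689 (-0.0142), Zfp974 (-0.0178), Zfp322a (-0.0395) and Trim28 (-0.0442), and for Trim28 also with RLE size factors (-0.0003); the cause was not tested. On leaving out 1 library it changed in Trim28 (-0.045 to 0.0421), Zfp180 (-0.0788 to 0.149), Zfp346 (-0.014 to 0.0649), Zfp629 (-0.0143 to 0.1997), Zfp322a (-0.033 to 0.0409), Zfp93 (-0.132 to 0.0822), Zfp207 (-0.0277 to 0.0558), Zfp318 (-0.0114 to 0.0671), Zfp644 (-0.0054 to 0.1163), Zfp688 (-0.1497 to 0.2017), Zfp758 (-0.1294 to 0.1945), Zfp974 (-0.0588 to 0.1143), Zfp61 (-0.1426 to 0.033), Zfp217 (-0.0487 to 0.0023), Zfp281 (-0.0008 to 0.1055), Zfp626 (-0.105 to 0.1261), Zfp979 (-0.3672 to 0.0498) and Zfp689 (-0.0436 to 0.1201). Zfp33b, just under 10 CPM, was not called in 7 of these settings, DESeq2 included.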
